A study of Mus musculus with 8 samples.

Results

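The 10 genes described here encode parts of the transforming growth factor beta (TGF-beta) and bone morphogenetic protein (BMP) pathways, named by a list of gene symbols out of 49315 genes counted. They are the receptor and co-receptor genes *Eng*, *Acvrl1*, *Bmpr2*, *Tgfbr1*, *Tgfbr2* and *Cd109*, the inhibitory SMAD genes *Smad6* and *Smad7*, and the target genes *Id1* and *Id3*. Their transcripts were compared between brain endothelial cells (ECs) of 4 mutant and 4 wild-type mouse pups, 1 library per pup. Mutant pups carried *R26 GT-Map2k1-GFP/+* and *Tg-Cdh5CreER+/-*, so that tamoxifen-activated Cre, driven by the *Cdh5* promoter of ECs, switches on MAP2K1 (p.K57N), an activated form of the kinase that phosphorylates ERK. Control pups were wild type per the labels and were drawn from litters that also held mutants. A supplementary title of the study instead describes the control as carrying *Tg:Cdh5-CreER*, so whether some controls carried Cre is not settled by the sources used here. Litters of both groups were given tamoxifen at P1, ECs were taken at P9 with beads that bind the surface protein CD31, and both strains had been backcrossed to C57BL/6J. Limits of the model are that only a minority of the mutant ECs carried the recombined allele, and that this allele is expressed from a strong CAG promoter at the *R26* locus rather than from *Map2k1* itself.

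In ECs, TGF-beta and BMP ligands bind pairs of type I and type II receptor kinases that phosphorylate SMAD proteins, which then enter the nucleus with SMAD4. BMP9 and BMP10 from the blood signal through the type I receptor ALK1 (*Acvrl1*) with BMPR2 and the co-receptor endoglin (*Eng*) to SMAD1 and SMAD5, whereas TGF-beta signals through TGFBR2 and ALK5 (*Tgfbr1*) to SMAD2 and SMAD3. Heterozygous loss of *ENG*, *ACVRL1* or *SMAD4* causes hereditary hemorrhagic telangiectasia in people, a disease with inherited arteriovenous malformations. *Smad6* and *Smad7* are induced by the pathway and restrain it, and *Id1* and *Id3*, which encode inhibitors of DNA binding, are standard readouts of SMAD1 and SMAD5.

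The libraries held between 24833373 and 34196955 counts on genes. *Map2k1* had 12660 to 18687 normalized counts in mutant and 1502 to 1758 in wild-type libraries, which are scaled counts at the mean library size and here include the transgene's cDNA. The summed level of 10 EC markers was 356522 to 432845 in mutant and 333026 to 403834 in wild-type libraries. The sums overlapped, but 3 of the 10 EC markers were higher in mutant ECs (*Cdh5*, log2 fold change 1.11, *Emcn*, 0.82, and *Pecam1*, 0.53, the gene of CD31), 3 were lower (*Kdr*, -0.59, *Cldn5*, -0.47, and *Tek*, -0.44), and their groups did not overlap. Microglia and macrophage markers stood apart in both libraries of replicate 3, at 8369 (mutant) and 10915 (wild type), against 2177 to 5774 in the other 6 libraries.

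All 10 genes passed the filter on low counts. Of the 10, 5 were lower in mutant ECs (*Eng*, *Smad6*, *Smad7*, *Id1* and *Id3*) and 1 was higher (*Cd109*), while *Acvrl1*, *Bmpr2*, *Tgfbr1* and *Tgfbr2* did not pass the test (adjusted p under 0.05, edgeR quasi-likelihood with Benjamini-Hochberg over all 16887 genes tested). Among all genes tested, 44.4% passed, 22.9% as lower and 21.5% as higher. The groups did not overlap for the same 6 genes, against 42.5% of all genes tested. With a log2 fold change beyond 1 in addition, *Smad7* and *Cd109* were called, and 14.0% of all genes tested were. The median log2 fold change (mutant over wild type) was -0.24 over the 10 genes and -0.02 over all genes tested. Within these bulk libraries, fewer cells expressing a gene and less of its RNA per cell cannot be told apart.

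**Figure D1:**
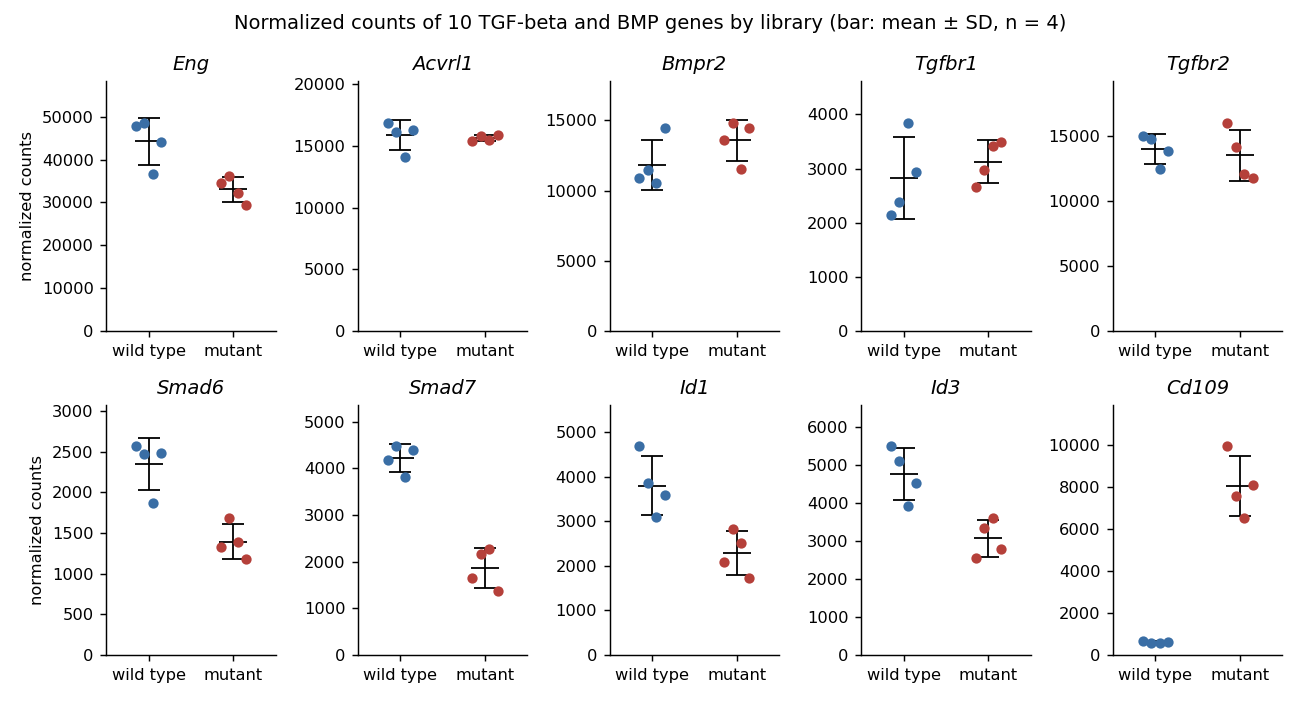
Normalized counts of the 10 genes (y axis, linear from 0) in each wild-type and mutant library, with 1 point per pup and bars for the mean and SD (n = 4 per group). Mutant points lie below all wild-type points for *Eng*, *Smad6*, *Smad7*, *Id1* and *Id3* and above them for *Cd109*, while the groups overlap in the other 4 panels.

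Levels were taken per kilobase of the length deposited with the counts. That length, 4048 bases for *Eng* and 17983 for *Bmpr2*, is not the genomic span. *Eng* was first in wild-type ECs, at 10925 ± 1346 normalized counts per kb (SD, n = 4). *Acvrl1* followed at 3720 ± 281, *Id1* at 3277 ± 575 and *Id3* at 2660 ± 382 (SD, n = 4 for each level per kb), and the ranges of neighbours in this order overlapped from *Acvrl1* to *Id3*. Next stood *Tgfbr2* at 1711 ± 142, *Smad7* at 932 ± 65.8, *Smad6* at 734 ± 100.4, *Bmpr2* at 658 ± 98.7 and *Tgfbr1* at 433 ± 116 per kb, with overlapping ranges from *Smad6* to *Tgfbr1*. *Cd109* was last, at 88.2 ± 5.28 per kb. In mutant ECs *Eng* was still first, at 8178 ± 724 per kb, and *Acvrl1* next at 3666 ± 54.2, but *Cd109* stood sixth at 1165 ± 208, below *Tgfbr2* (1648 ± 242), with its highest library (1441) just above the lowest of *Tgfbr2* (1435). *Smad7* was last in mutant ECs at 411 ± 94.9 per kb, and its range overlapped that of *Smad6* (435 ± 66.4).

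Among the receptors, *Eng* (ENSMUSG00000026814, chr2:32646595-32682669, plus strand, GRCm38) was lower in mutant ECs. Its product endoglin presents BMP9 to ALK1 on the EC surface. *Eng* had 47709, 48574, 36615 and 44004 normalized counts in wild-type libraries 1 to 4, and 34574, 36192, 32177 and 29468 in mutant libraries 1 to 4. The highest mutant library lay just below the lowest wild-type library, that of replicate 3. The mutant mean was 74.9% of the wild-type mean, with a log2 fold change of -0.42 (SE 0.11, adjusted p = 0.00899). Gene models on the same strand (*Mir1954*, *Gm47291*, *Gm26236*) and *Fpgs* on the opposite strand share part of its span, and the use of strand in counting is not stated in the sources used here. *Fpgs* had 668 normalized counts in mutant and 882 in wild-type libraries, far below *Eng*.

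*Acvrl1* (ENSMUSG00000000530, chr15:101128522-101145336, plus strand) encodes ALK1, the type I receptor for BMP9 and BMP10. It had 16883, 16128, 14136 and 16321 normalized counts in wild-type libraries and 15422, 15808, 15452 and 15862 in mutant libraries. All 4 mutant values lay inside the wild-type range. The log2 fold change was -0.02 (95% interval -0.16 to 0.12, adjusted p = 0.835), and its difference from that of *Eng* was not tested. *Bmpr2* (ENSMUSG00000067336, chr1:59763400-59879014, plus strand), the type II receptor that pairs with ALK1, had 10895, 11479, 10552 and 14441 normalized counts in wild-type libraries and 13575, 14837, 11543 and 14433 in mutant libraries. The groups overlapped because wild-type library 4 stood with the mutant libraries. Its log2 fold change was 0.20 (95% interval -0.03 to 0.43, adjusted p = 0.187), and 0.31 (adjusted p = 0.0324) without wild-type library 4, so that this library decides the call.

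*Tgfbr1* (ENSMUSG00000007613, chr4:47353222-47414931, plus strand) encodes ALK5, the type I receptor for TGF-beta. It had 2143, 2387, 3846 and 2930 normalized counts in wild-type libraries and 2655, 2969, 3412 and 3485 in mutant libraries. The highest value was in wild-type library 3, the library with the highest sum of microglia and macrophage markers, and the part of those cells in *Tgfbr1* was not tested. The log2 fold change was 0.15 (95% interval -0.18 to 0.48, adjusted p = 0.502), and 0.30 (adjusted p = 0.114) without replicate 3 of both groups, an alternative chosen after seeing the data. *Tgfbr2* (ENSMUSG00000032440, chr9:116084293-116175360, minus strand), the type II receptor for TGF-beta, had 15008, 14756, 12439 and 13814 normalized counts in wild-type libraries and 16008, 14144, 12083 and 11748 in mutant libraries. Mutant libraries held both its highest and its lowest value. The log2 fold change was -0.05 (95% interval -0.27 to 0.16, adjusted p = 0.718).

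The balance of both type I receptors was also compared within each library, where no scaling between libraries is needed. The log2 ratio of *Acvrl1* to *Tgfbr1*, each per kilobase, averaged 2.94 ± 0.18 in mutant and 3.14 ± 0.48 in wild-type libraries (SD, n = 4 per group). The difference of -0.19 was smaller than the wild-type SD (exact two-sided permutation test, p = 0.514). It changed sign between label prefixes, the leading digits of the sample descriptions, whose meaning the labels do not give. Replicates 1 and 2 share 1 prefix, in which the difference was -0.39, while it was 0.30 in that of replicate 3 and -0.29 in that of replicate 4. The prefixes of replicates 3 and 4 each hold 1 mutant and 1 wild-type library. Differences within them, here and below, therefore compare 1 pup with 1 pup and have no measure of spread.

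*Cd109* (ENSMUSG00000046186, chr9:78615546-78716253, plus strand) was the only one of the 10 genes that rose. It encodes a GPI-anchored surface protein that binds TGF-beta as a co-receptor and is known to dampen signalling by ALK5. *Cd109* had 645, 568, 588 and 633 normalized counts in wild-type libraries and 9946, 7595, 6508 and 8105 in mutant libraries. Every mutant library stood far above every wild-type library, at a mean 13.2-fold higher. The log2 fold change was 3.72 (SE 0.13, adjusted p = 1.27e-07), and within the prefixes 3.85 (replicates 1 and 2), 3.47 (replicate 3) and 3.68 (replicate 4). *4921509A06Rik*, on the opposite strand of its span, had 1.86 normalized counts in mutant and 0.230 in wild-type libraries.

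The profile of *Cd109* over the 8 libraries was nearest to those of *F2rl3*, which encodes the thrombin receptor PAR4, and *Igfbp3*, a binding protein for insulin-like growth factors. The root mean square distance between centred log2 profiles was 0.157 for *F2rl3* (log2 fold change 3.96) and 0.176 for *Igfbp3* (3.91), among 11395 genes compared. For *Eng*, the nearest profiles were those of *Pea15a* (distance 0.0416, log2 fold change -0.43), which encodes an ERK-binding protein, and *Entpd5* (0.0459, -0.38). For *Acvrl1* they were *Atp5h* (0.0298, -0.02) and *Bcap31* (0.0307, 0.01). These distances describe 8 libraries in 2 groups and carry no test.

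Both inhibitory SMAD genes were lower in mutant ECs. SMAD6 acts mainly against BMP receptors, and SMAD7 blocks type I receptors of both branches. *Smad6* (ENSMUSG00000036867, chr9:63953076-64022059, minus strand) had 2566, 2476, 1872 and 2491 normalized counts in wild-type libraries and 1325, 1683, 1395 and 1176 in mutant libraries. The wild-type library of replicate 3 stood below its group but above all mutant libraries. *Smad6* fell to 59.3% of the wild-type mean, with a log2 fold change of -0.75 (SE 0.13, adjusted p = 0.000897). *Smad7* (ENSMUSG00000025880, chr18:75367529-75395935, plus strand) had 4182, 4467, 3807 and 4400 normalized counts in wild-type libraries and 1644, 2168, 2262 and 1361 in mutant libraries. The groups were separated by a wide gap, and the mutant mean was 44.1% of the wild-type mean (log2 fold change -1.18, SE 0.15, adjusted p = 0.000149). Within the prefixes, *Smad7* differed by -1.18 (replicates 1 and 2), -0.75 (replicate 3) and -1.69 (replicate 4) on the log2 scale, and *Smad6* by -0.75, -0.42 and -1.08 in the same order.

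Within each library, the ratio of *Smad6* to *Smad7* was higher in mutant ECs before correction. On the log2 scale and per kilobase it averaged 0.10 ± 0.21 in mutant and -0.35 ± 0.13 in wild-type libraries (SD, n = 4 per group), a difference of 0.45 (p = 0.0286, exact permutation, two-sided, which is the lowest p that 4 against 4 libraries can reach). The groups were apart by a narrow margin, with the lowest mutant library at -0.20 and the highest wild-type library at -0.21. Within the prefixes the difference was 0.44 (replicates 1 and 2), 0.33 (replicate 3) and 0.61 (replicate 4). Adjusted over both ratios by Benjamini-Hochberg, the exact permutation p was 0.0571 for *Smad6* to *Smad7*, which misses the threshold, and 0.514 for *Acvrl1* to *Tgfbr1*.

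The target genes *Id1* and *Id3* were lower in mutant ECs. *Id1* (ENSMUSG00000042745, chr2:152736251-152737410, plus strand) had 4681, 3850, 3087 and 3585 normalized counts in wild-type libraries and 2076, 2830, 2515 and 1717 in mutant libraries. The highest mutant library came close to wild-type library 3 but stayed below it. The log2 fold change of *Id1* was -0.73 (SE 0.16, adjusted p = 0.00427), a mutant mean of 60.1% of the wild-type mean. *Id3* (ENSMUSG00000007872, chr4:136143497-136145755, plus strand) had 5492, 5102, 3922 and 4540 normalized counts in wild-type libraries and 2550, 3344, 3602 and 2779 in mutant libraries. Here the libraries of replicate 3 were the closest of the 2 groups. *Id3* stood at 64.4% of the wild-type mean (log2 fold change -0.63, SE 0.13, adjusted p = 0.00291). The difference was smallest within the prefix of replicate 3 for both genes, at -0.30 for *Id1* and -0.12 for *Id3*, against -0.80 and -0.85 within that of replicates 1 and 2 and -1.06 and -0.71 within that of replicate 4. For *Eng*, the same order of prefixes gave -0.19, -0.44 and -0.58. Without both libraries of replicate 3, *Id1* differed by -0.86 and *Id3* by -0.79, and *Eng* by -0.47 (adjusted p = 0.00574, 0.00119 and 0.00734).

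**Figure D2:**
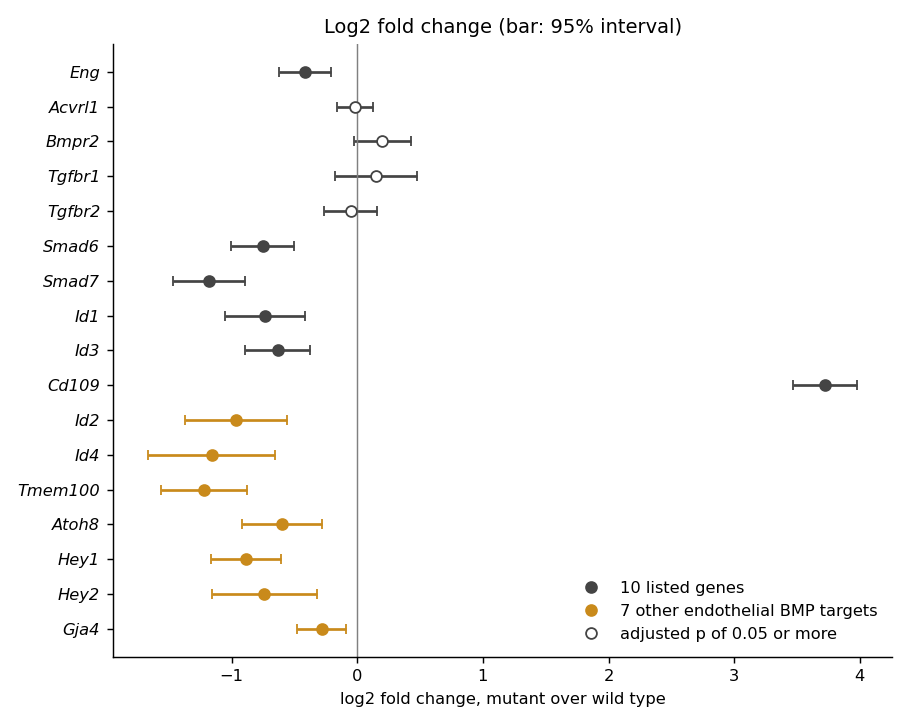
Log2 fold change of mutant over wild type (x axis) for the 10 genes and 7 other endothelial BMP targets (y axis), with bars for the 95% interval (1.96 standard errors on each side) and open points for genes that did not pass the test. *Cd109* stands alone at 3.72, the 4 receptor genes with open points have bars that cross 0, and *Eng*, *Smad6*, *Smad7*, *Id1*, *Id3* and all 7 other targets lie left of 0.

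A wider list of endothelial BMP targets moved the same way. All 7 of its genes were lower in mutant ECs, beside 22.9% of all genes tested, with a median log2 fold change of -0.88. The list was chosen with earlier results of these data known, so this count is a description and not independent support. *Tmem100*, which encodes a membrane protein induced by ALK1 signalling, had 626, 645, 453 and 786 normalized counts in wild-type libraries and 279, 268, 317 and 214 in mutant libraries (log2 fold change -1.22, SE 0.17, adjusted p = 0.000327). Its groups were well apart. *Id2*, a paralog of *Id1*, had 1579, 1458, 1501 and 1378 normalized counts in wild-type libraries and 523, 644, 1182 and 687 in mutant libraries (-0.96, SE 0.21, adjusted p = 0.00374). *Id4*, also of this family, had 244, 248, 307 and 313 in wild-type and 69.5, 105, 191 and 132 in mutant libraries (-1.16, SE 0.26, adjusted p = 0.00454). In both, mutant library 3 stood nearest to the wild-type libraries. *Hey1*, a transcriptional repressor shared with the Notch pathway, fell by 0.88 on the log2 scale (SE 0.14, adjusted p = 0.000686), as did *Hey2* by 0.74 (0.21, 0.0166) and the transcription factor gene *Atoh8* by 0.60 (0.16, 0.0122). *Gja4*, which encodes a connexin of arterial ECs, fell by 0.28 (0.10, 0.0363) with overlapping groups. The calls of *Gja4* and *Hey2* are the less stable ones: 5 to 7 of the 7 genes passed over the alternatives, 6 with DESeq2 and 5 without wild-type library 2.

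Promoter sequence is shown for 3 of the *Id* genes that fell together, as the 250 bases upstream of the RefSeq start in GRCm38.p6, read 5′ to 3′ on the strand of the gene. Capitals mark GGCGCC, the GC-rich element bound by SMAD1 and SMAD5, which reads the same on both strands. They also mark CAGAC, the element bound by SMAD3 and SMAD4, or its reverse complement, since both strands were searched. *Id3* is chr4:136143572-136143821 (plus strand), *Id2* chr12:25096093-25096342 (minus strand) and *Id4* chr13:48260866-48261115 (plus strand).
Id3: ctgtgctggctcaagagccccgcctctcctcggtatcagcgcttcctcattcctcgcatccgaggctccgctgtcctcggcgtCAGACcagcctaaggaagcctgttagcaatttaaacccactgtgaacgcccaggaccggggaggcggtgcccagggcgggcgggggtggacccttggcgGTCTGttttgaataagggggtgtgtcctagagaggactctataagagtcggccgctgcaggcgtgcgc
Id2: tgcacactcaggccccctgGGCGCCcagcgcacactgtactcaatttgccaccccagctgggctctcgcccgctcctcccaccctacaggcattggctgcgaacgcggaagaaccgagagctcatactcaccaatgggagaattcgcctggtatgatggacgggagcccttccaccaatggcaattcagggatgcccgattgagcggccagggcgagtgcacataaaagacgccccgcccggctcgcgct
Id4: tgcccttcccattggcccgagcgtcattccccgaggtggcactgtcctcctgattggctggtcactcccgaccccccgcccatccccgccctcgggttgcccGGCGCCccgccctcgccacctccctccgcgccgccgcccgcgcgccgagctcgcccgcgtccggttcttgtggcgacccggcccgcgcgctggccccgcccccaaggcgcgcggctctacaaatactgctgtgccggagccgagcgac
The window of *Id3* holds CAGAC 2 times, once on each strand, and those of *Id2* and *Id4* hold GGCGCC 1 time each. Upstream windows were found for 6 of the 10 genes and 5 of the 7 other BMP targets. GGCGCC was present in 9.59% and CAGAC in 42.2% of 32851 windows of this length over all RefSeq genes. GGCGCC was also in the windows of *Bmpr2* and of the first start of *Tgfbr1*, genes that did not pass the test, while neither motif was in the window of *Smad6*, *Atoh8* or *Hey2*. These matches are letters in a window and not binding sites.

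**Figure D3:**
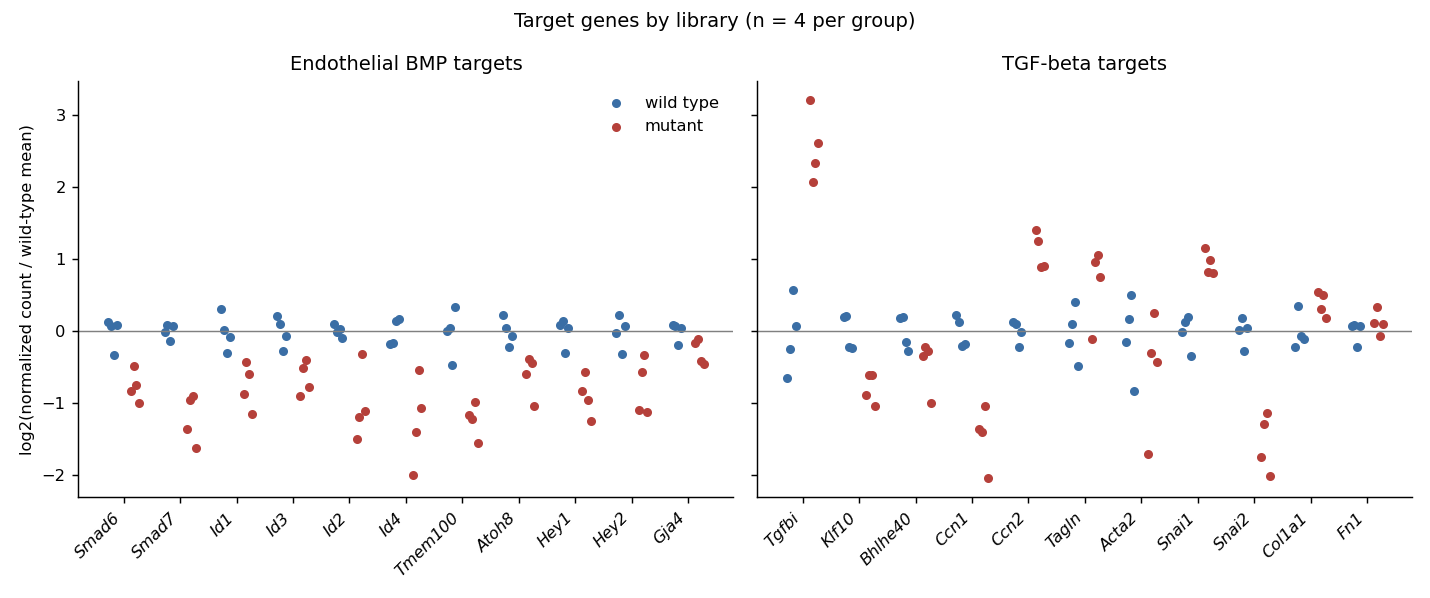
Log2 of each library's normalized count over the wild-type mean (y axis) for inhibitory SMAD genes, *Id* genes and other endothelial BMP targets (left) and for 11 of the 12 TGF-beta targets (right), 1 point per library (n = 4 per group). All mutant points in the left panel lie below 0, and those in the right panel lie on both sides, with *Tgfbi* highest and *Snai2* among the lowest.

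Targets assigned to TGF-beta did not move in one direction. Of 12 genes tested, 6 were higher (beside 21.5% of all genes tested), 3 were lower (beside 22.9%) and 3 did not pass, with a median log2 fold change of 0.26. *Tgfbi*, an extracellular matrix protein induced by TGF-beta, had 1585 ± 567 normalized counts in mutant and 258 ± 92.6 in wild-type ECs (SD, n = 4; log2 fold change 2.61, SE 0.29, adjusted p = 8.02e-05). *Snai2*, a transcription factor of endothelial-to-mesenchymal transition, was lower, at 122 ± 33.2 and 347 ± 44.2 (-1.51, SE 0.20, adjusted p = 0.000194). The related *Snai1* was higher (0.94, adjusted p = 0.000526). Among matricellular proteins, *Ccn2* was higher (1.12, adjusted p = 9.16e-05) and *Ccn1* lower (-1.42, adjusted p = 0.000212), both also known as targets of other pathways. *Snai1*, *Ccn1* and *Ccn2* were named after their values were seen. *Tagln* and *Acta2* of this list also stand in the smooth muscle marker list, and *Col1a1* in the fibroblast list.

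*Inhbb* had the largest log2 fold change among the 69 pathway genes tested. Of 13 ligand genes, 11 were tested. Of these, 3 were higher (beside 21.5% of all genes tested) and 1 was lower (beside 22.9%), with a median log2 fold change of 0.22. *Inhbb* encodes the beta-B subunit of activin B, a ligand that signals to SMAD2 and SMAD3. It had 193, 205, 169 and 220 normalized counts in wild-type libraries and 10733, 4694, 3864 and 7053 in mutant libraries. Its mutant mean was 33.5-fold higher (log2 fold change 5.07, SE 0.32, adjusted p = 2.92e-06), with a wide spread between mutant pups. *Inhba*, the beta-A subunit, was higher as well from a low level, at 76.4 ± 30.5 in mutant and 11.7 ± 7.45 in wild-type ECs (SD, n = 4; 2.71, SE 0.45, adjusted p = 0.000853), and was named after its values were seen. *Tgfb1* had 5619, 5943, 5629 and 5758 normalized counts in wild-type libraries and 14298, 12210, 11351 and 13143 in mutant libraries (1.15, SE 0.08, adjusted p = 5.59e-06). *Tgfb2* went the other way, from 2173, 2311, 2003 and 2356 to 551, 847, 900 and 745 (-1.54, SE 0.14, adjusted p = 2.03e-05). The groups were apart for all 4 of these ligands. The BMP ligand genes tested (*Bmp2*, *Bmp4*, *Bmp5*, *Bmp6* and *Bmp7*) did not pass, and *Gdf2*, which encodes BMP9, had 0 counts in every library, below a floor of 3 counts.

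**Figure D4:**
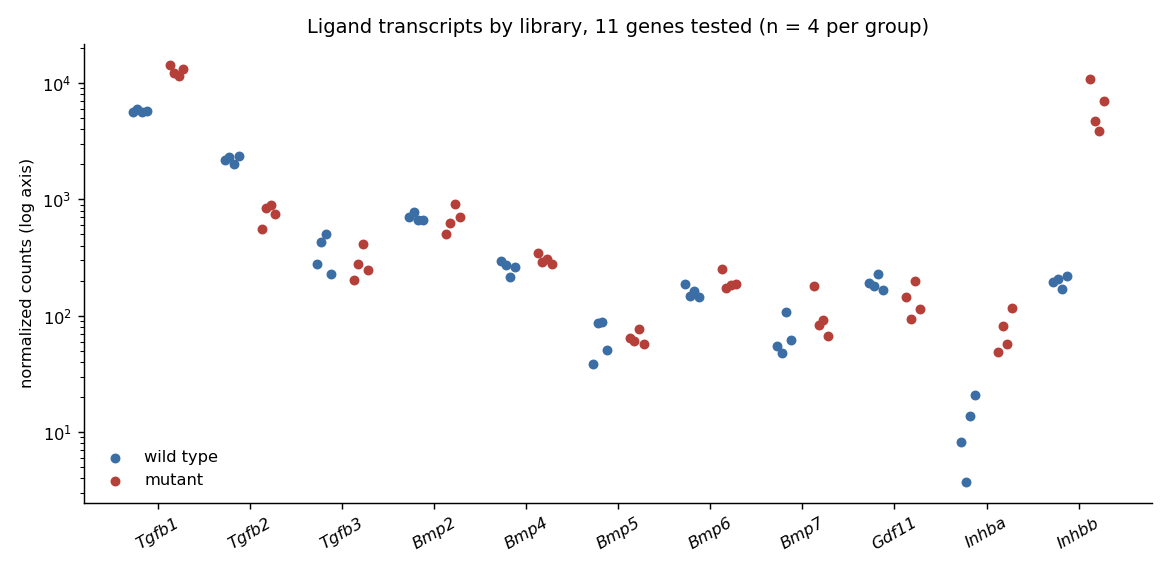
Normalized counts (log axis) of the 11 ligand genes tested in each wild-type and mutant library, with 1 point per pup (n = 4 per group). *Inhbb* shows the widest gap, from 169 to 220 in wild-type to 3864 to 10733 in mutant libraries, *Tgfb1* and *Inhba* are higher and *Tgfb2* is lower, while the points of the BMP genes are mixed.

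Among 11 other receptors and co-receptors tested, 2 were higher (beside 21.5% of all genes tested) and 1 was lower (beside 22.9%). Their median log2 fold change was -0.03. Both that rose hold latent TGF-beta at the cell surface: *Lrrc32* (GARP) had 10674 ± 1984 normalized counts in mutant and 4525 ± 957 in wild-type ECs (SD, n = 4; log2 fold change 1.24, SE 0.17, adjusted p = 0.000248), and *Nrros* 2475 ± 327 and 1208 ± 61.8 (1.03, SE 0.10, adjusted p = 3.00e-05). *Bambi*, a pseudoreceptor without kinase activity, was lower, at 1412 ± 397 and 2287 ± 154 (-0.70, SE 0.19, adjusted p = 0.0117). The type I receptor gene *Acvr1*, the type II receptor gene *Acvr2a* and betaglycan (*Tgfbr3*) did not pass, with log2 fold changes of -0.04, -0.03 and -0.24.

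Of 6 genes for SMADs that carry the signal, 3 were higher (beside 21.5% of all genes tested) and 1 was lower (beside 22.9%). Their median log2 fold change was 0.17. The lower gene was *Smad9*, of the BMP branch, at 17.0 ± 3.03 normalized counts in mutant and 28.8 ± 4.58 in wild-type ECs (SD, n = 4; -0.76, SE 0.25, adjusted p = 0.0321), and it was named after its values were seen. *Smad1*, on the BMP branch, had 4911 ± 725 normalized counts in mutant and 3148 ± 567 in wild-type ECs (SD, n = 4; 0.64, SE 0.14, adjusted p = 0.00392). *Smad4*, the shared partner, had 3303 ± 200 and 2682 ± 115 (0.30, SE 0.07, adjusted p = 0.00426). *Smad5* had 4188 ± 229 and 3672 ± 163 (0.19, SE 0.07, adjusted p = 0.0383), a call lost in several alternatives, where its adjusted p reached 0.117. *Smad2* and *Smad3*, of the TGF-beta branch, did not pass (log2 fold change 0.16 and -0.02).

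Genes for extracellular antagonists and latency proteins were split, with 4 lower, 2 higher and 6 that did not pass of 12 tested (median 0.09). Among all genes tested, 22.9% were lower and 21.5% higher. Latent TGF-beta binding proteins moved apart. *Ltbp4* was lower, at 32939 ± 2016 normalized counts in mutant and 71108 ± 11429 in wild-type ECs (SD, n = 4; -1.11, SE 0.12, adjusted p = 6.21e-05), as was *Ltbp1* (-0.51, SE 0.11, adjusted p = 0.00426), whereas *Ltbp2* was higher (1.86, SE 0.19, adjusted p = 4.67e-05). Of 8 intracellular inhibitors, 3 were lower and 1 was higher (median -0.17), beside the same shares of all genes tested. The corepressor gene *Ski* (-0.45, SE 0.07, adjusted p = 0.000467), *Tgif2* (-0.42, SE 0.12, adjusted p = 0.0146) and the ubiquitin ligase gene *Nedd4l* (-0.41, SE 0.09, adjusted p = 0.00475) fell, and *Tgif1*, named after its values were seen, rose (0.39, adjusted p = 0.00252). *Rasa1* and *Ephb4*, the genes of capillary malformation-arteriovenous malformation, did not pass, with log2 fold changes of 0.17 (adjusted p = 0.122) and -0.15 (adjusted p = 0.318). Over all 72 genes of these lists, 69 were tested. Of these, 20 were lower and 17 higher, beside 22.9% and 21.5% of all genes tested, with a median of -0.03.

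Markers of other cells moved with the groups in some lists. Among all genes tested, 22.9% were lower and 21.5% higher. All 5 oligodendrocyte lineage markers were lower in mutant ECs, with sums of 740 to 1625 normalized counts in mutant and 2552 to 7491 in wild-type libraries. All 4 red blood cell markers were lower, with sums of 2259 to 7405 and 13762 to 23869, as were 3 of 5 neuron markers (573 to 801 and 825 to 1508). The neuron marker *Rbfox3* went the other way without passing, at a mean of 293 in mutant and 128 in wild-type libraries (log2 fold change 1.19, adjusted p = 0.0514). *Syt1* was lower but did not pass (-1.70, adjusted p = 0.0845). No marker of any list was at 0 in a library. Within the wild-type group, the oligodendrocyte sum ran from 2552 in library 4 to 7491 in library 1. The part of these cells in the lower level of *Eng*, *Smad6*, *Smad7*, *Id1*, *Id3* and the other BMP targets was not tested. Pericyte and smooth muscle sums overlapped between groups (19869 to 33640 and 19156 to 35502), although 3 of 9 of these markers were higher in mutant ECs. Platelet sums were 269 to 512 and 266 to 373, and astrocyte sums 373 to 1083 and 515 to 944, with 1 lower marker in each list. Fibroblast sums were 26987 to 34260 in mutant and 20720 to 29755 in wild-type libraries, with 2 of 5 markers higher and 1 lower, and their part in the fibroblast-expressed genes *Tgfbi* and *Ltbp2* was not tested.

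**Figure D5:**
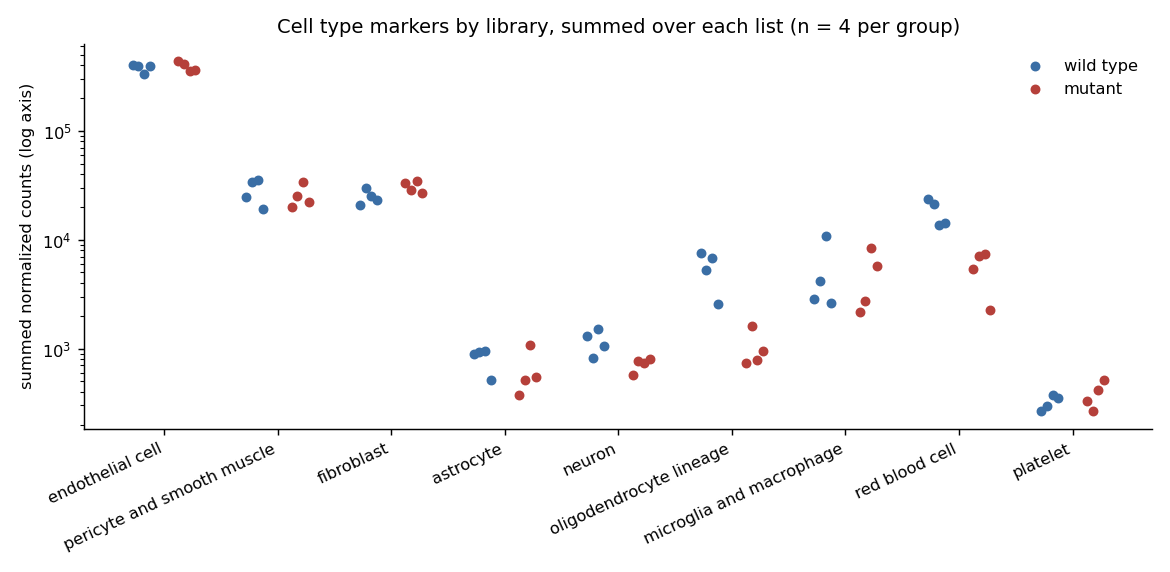
Summed normalized counts (log axis) of 9 lists of cell type markers in each wild-type and mutant library, with 1 point per pup (n = 4 per group). Oligodendrocyte lineage and red blood cell sums are lower in all mutant libraries, EC sums overlap although 3 EC markers were higher and 3 lower, and the highest microglia and macrophage sums belong to replicate 3 of both groups.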

How the data were processed

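Poly(A) RNA of CD31-selected brain ECs was sequenced for 4 mutant and 4 wild-type pups, grouped by title. The authors used Trimmomatic for trimming and STAR for alignment to GRCm38, and deposited whole-number counts per gene for each library. The counting program, annotation and strand setting are not given in the sources used here. A second deposited set holds the same counts divided by a DESeq2 size factor per library and was not used here. Of 49315 gene identifiers, 48970 matched a symbol, from the GENCODE vM21 annotation or the name tables of the reference.

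Groups were compared with edgeR 4.0.16 in R 4.3.3 (TMM, filterByExpr with a minimum count of 10, glmQLFit and glmQLFTest, no covariate), and p was adjusted by Benjamini-Hochberg over 16887 genes. DESeq2 1.42.0 was an alternative. A gene passed the test at an adjusted p under 0.05, and the stricter call also needed an absolute log2 fold change over 1. Every adjusted p in the text is from this edgeR fit unless another source is named. Standard errors were derived from the fold change and its F statistic. The 95% intervals are 1.96 SE on each side, a normal multiplier, so they are narrower than the edgeR test implies. For *Rasa1* the interval was 0.007 to 0.335, although its unadjusted edgeR p was 0.0674. Ratios were tested by exact permutation (scipy 1.17.1). The edgeR fit, but not the ratio test, was checked on simulated counts with known changes. Those counts had 1 dispersion for all genes and far fewer changed genes than were called here, so the check does not cover such conditions. The p-values measure the spread between pups. Libraries of the same group differed by more than sampling noise (chi-square per degree of freedom 7.30 to 41.6 over 12 pairs). With at least 24833373 counts per library, counting error is small for the 10 genes. It is not small for named genes at low counts, such as *Inhba* (4 to 20 raw counts in wild-type libraries) and *Smad9* (13 to 18 in mutant libraries).

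The 10 genes, the pathway lists and the marker lists were chosen with earlier results of these data known. Named besides the 10 genes were, per list, the 3 genes of largest absolute log2 fold change among those that passed and whose higher group averaged 100 normalized counts or more, and the 2 nearest profiles of *Cd109*, *Eng* and *Acvrl1*. Other names are marked in the text or complete a list, and 1 TGF-beta target is counted but not reported here by name. Alternatives were DESeq2, other normalizations and filters, the replicate number or label prefix as a block, and each library left out in turn.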

Additional observations from a re-analysis of the deposited data

Results flagged for a closer look

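*Smad6* in wild-type library 3 had 1872 normalized counts, apart from the other 3 wild-type libraries at 2476 to 2566, by Dixon's test of the gap to the nearest value over the range. It was the only library singled out among 20 groups tested (10 genes in both groups), and chance alone singles out about 1 in 20 groups.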

How the results depend on the processing

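The 5 lower genes (*Eng*, *Smad6*, *Smad7*, *Id1* and *Id3*) and *Cd109* kept their direction and their call in every alternative run, with log2 fold changes between -0.49 and -0.34 for *Eng*, -0.86 and -0.66 for *Smad6*, -1.32 and -1.03 for *Smad7*, -0.86 and -0.60 for *Id1*, -0.79 and -0.53 for *Id3*, and 3.63 and 3.82 for *Cd109*. The count of higher genes ranged from 1 to 2 as each library was left out, since *Bmpr2* passed without wild-type library 4 (0.31, adjusted p = 0.0324). Genes near 0 changed sign: *Acvrl1* was at 0.000182 with DESeq2 and between -0.0692 and 0.0296 as each library was left out, and *Tgfbr2* was between -0.121 and 0.0306 over the same fits. The log2 ratio of *Acvrl1* to *Tgfbr1* differed by 0.30 within the prefix of replicate 3. The ratio of *Smad6* to *Smad7* differed by 0.61 within the prefix of replicate 4 and by 0.39 to 0.55 as each library was left out, where 3 against 4 libraries cannot reach the threshold. The cause of these changes was not tested. Deviations from the group means correlated at 0.201, 0.210, 0.290 and 0.0241 for replicate numbers 1 to 4, and the main fit did not pair the libraries by number. Pairs of unlike number ran from -0.358 (mutant 1 with wild type 3) to 0.384 (mutant 4 with wild type 3), above every same-number pair. The study chose wild-type pups to match the number of mutants per litter. These correlations cannot tell whether same-numbered libraries came from the same litter. With the replicate block, 8162 genes passed in place of 7504, the same 6 of the 10 genes passed, and the ratio of *Smad6* to *Smad7* differed by 0.45 (exact paired permutation p = 0.125, the smallest that 4 pairs allow). The label prefix as a block gave 8610 genes that passed, among them the same 6 of the 10 genes. With 4 libraries per group, changes as small as the estimate for *Tgfbr1* (0.15) were within its standard error of 0.17.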
